A study of Mus musculus with 27 samples.

Results

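Embryoid bodies grown from mouse embryonic stem cells that carried a short hairpin RNA (shRNA) against Sox17 were compared between day 10 and day 8 of differentiation. Of the 27 arrays of the series, 4 belong to this comparison, 2 labelled shSOX17 D10 and 2 labelled shSOX17 D8, and they were chosen by their titles alone. The parent line was AB2.2, and its cells had been given the hairpin by a lentivirus that also makes a green fluorescent protein (eGFP), on which they were sorted. The aggregates formed in hanging drops and were plated at day 4.5, so both days follow plating. The cells set beside them carried the same kind of virus with an shRNA against firefly luciferase (shLUC), a gene mice lack, and gave 2 arrays at day 10 and 2 at day 8. Each array is named here by arm, day and replicate. The labels call the arrays of a group biological replicates without saying whether they were separate transductions, so the spread between them may be technical. The p-values use a spread pooled over all 27 arrays of the series, not that of these 4 alone.

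Sox17 is a transcription factor of the SoxF group with known roles in endoderm, in arterial endothelium and in early blood formation. In embryoid bodies, primitive red cells, endothelium, beating heart muscle and connective tissue cells arise from mesoderm at overlapping times. Primitive red cells are driven by the transcription factors Gata1, Tal1 and Klf1, whereas connective tissue cells are recognised by the collagens and small proteoglycans they secrete.

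The hairpin target was read first. Sox17 had a log2 level of 6.71 and 7.19 at day 10 and 7.90 and 8.54 at day 8 in shSOX17 cells. In shLUC cells it had 9.99 and 9.98 at day 10 and 9.91 and 10.29 at day 8. All shSOX17 arrays lay below all shLUC arrays, and within the shSOX17 arm the day 10 arrays lay below the day 8 arrays. The day 10 minus day 8 difference of -1.27 (SE 0.80, adjusted p = 0.632) did not pass the test. Hhex, a homeobox factor, had levels of 6.57 and 6.24 at day 10 and 7.55 and 6.77 at day 8, a difference of -0.75 (SE 0.45, adjusted p = 0.603). Cer1, a secreted Nodal antagonist, had a difference of -0.47 (SE 0.60, adjusted p = 0.911), at levels of 3.75 and 3.73 at day 10 and 4.11 and 4.32 at day 8. For both genes the days did not overlap, and neither passed the test.

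Across the 8 arrays of days 8 and 10, the actin probe sets near the 3' end exceeded those near the 5' end, a measure of RNA degradation, by 0.435 to 0.537. Array medians spanned 5.52 to 5.55. The mean of the bioB control probe sets was 6.49 to 6.75 on these 8 arrays and reached 9.67 elsewhere in the series. It was 9.67 and 7.11 on the 2 shSOX17 day 4 arrays. Courses over days and the pooled error cross this technical shift, which was not modelled. The 2 replicates of a shSOX17 group were less alike: subtracting one from the other gave an SD across genes of 0.33 at day 10 and 0.36 at day 8, against 0.10 at day 10 and 0.14 at day 8 in the shLUC arm. A common standard error served both arms, so the numbers of genes called in the 2 arms are not comparable. Of the markers fixed for 11 cell types, Myh11, Ptprc, Dcx, Krt14 and Myog were not among the genes that passed the filter on dim probe sets.

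From day 8 to day 10, genes of the connective tissue matrix rose in shSOX17 embryoid bodies and some erythroid genes fell. The embryonic globins did not pass the test. Of 13297 genes tested, 286 were called higher at day 10 (2.15%) and 67 lower (0.504%), at a limma adjusted p below 0.05. At least a 2-fold difference was reached by 120 of the higher and 31 of the lower genes. All 353 (2.65%) had day 10 arrays that did not overlap the day 8 arrays. By comparison, 24.2% of all genes tested had both day 10 arrays above both day 8 arrays and 15.3% had them below. The median difference over all genes was 0.02. Higher calls made up 81.0% of the total, and 69.2% (229 higher, 102 lower) when each array was centred on its median. How many genes pass depends on the arrays that set the error. A fit on the shSOX17 arm alone called 64 higher and 5 lower, and a fit on the 4 arrays alone called 0, with 1256 at an unadjusted p below 0.05. Leaving out day 10 replicate 1 left 125 higher and 36 lower. Without day 8 replicate 2 there were 167 higher and 75 lower, and without day 8 replicate 1 there were 223 higher and 35 lower. In all 4 such fits, 89 of the higher and 12 of the lower calls were kept. A gene entered the test if it exceeded 5.53, the median of all values, on at least 2 arrays. Of the 286 genes called higher, 16 exceeded it on the 2 shSOX17 day 10 arrays and on no other of the 27, so they entered through the group where they are high.

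Fibrillar collagen and mesenchyme genes carried the most calls of any list. Of 27 measured members, 14 rose (51.9%, against 2.15% of all genes) and 0 fell, and the other 13 did not pass the test. All 27 differences were positive, with a median of 0.86 against 0.02 over all genes. Decorin (Dcn), a small leucine-rich proteoglycan that binds collagen fibrils, had log2 levels of 10.90 and 10.47 at day 10 and 7.37 and 8.28 at day 8. Both day 10 arrays stood well above both day 8 arrays, a difference of 2.86 or 7.27-fold (SE 0.25, adjusted p = 2.9e-06). Osteoglycin (Ogn), of the same proteoglycan family, had 6.95 and 6.62 at day 10 and 4.31 and 4.47 at day 8. Its replicates lay close together within each day, and the difference was 2.39 (SE 0.17, adjusted p = 1.03e-07). Ogn is 1 of the 16 genes that entered the test through the shSOX17 day 10 arrays alone. Lysyl oxidase (Lox), which cross-links collagen and elastin, reached 7.16 and 7.67 at day 10, against 4.75 and 5.42 at day 8 (2.33, SE 0.22, adjusted p = 5.25e-06), although 1 of its 3 probe sets had the opposite sign. Matrix Gla protein (Mgp), an inhibitor of calcification, had 7.65 and 6.44 at day 10 and 4.92 and 4.81 at day 8. Here replicate 1 of day 10 was the higher, and the difference was 2.18 (SE 0.27, adjusted p = 7.62e-05).

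The chains of collagen VI, a beaded microfibril that links cells to the matrix, rose together. Col6a2 had 9.43 and 9.12 at day 10 and 7.11 and 7.09 at day 8, a difference of 2.18 (SE 0.21, adjusted p = 7.29e-06). Col6a3 rose by 1.95 (SE 0.22) and Col6a1 by 1.76 (SE 0.16). Among the fibrillar collagens, Col1a1 had 12.54 and 12.56 at day 10 and 10.72 and 11.33 at day 8, and rose by 1.52 (SE 0.25, adjusted p = 0.00169). Its partner chain Col1a2 rose by 1.37 (SE 0.28, adjusted p = 0.0104), a call that was lost without day 10 replicate 1 (adjusted p = 0.242) and without day 8 replicate 2 (adjusted p = 0.165). Col3a1 had 13.57 and 13.42 at day 10 and 12.92 and 12.89 at day 8, and its 0.58 (SE 0.33, adjusted p = 0.558) did not pass. Postn and Bgn, a matrix protein of healing tissue and another small proteoglycan, had differences of 0.33 (adjusted p = 0.956) and 0.30 (adjusted p = 0.576) and did not pass either. The list kept 9 to 12 calls when any 1 of the 4 arrays was left out, 9 of them in every such fit, and 7 when the shSOX17 arm was fitted alone. Among the 5 markers fixed for fibroblasts and mesenchyme, Col1a1, Col1a2 and Dcn rose.

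**Figure D1:**
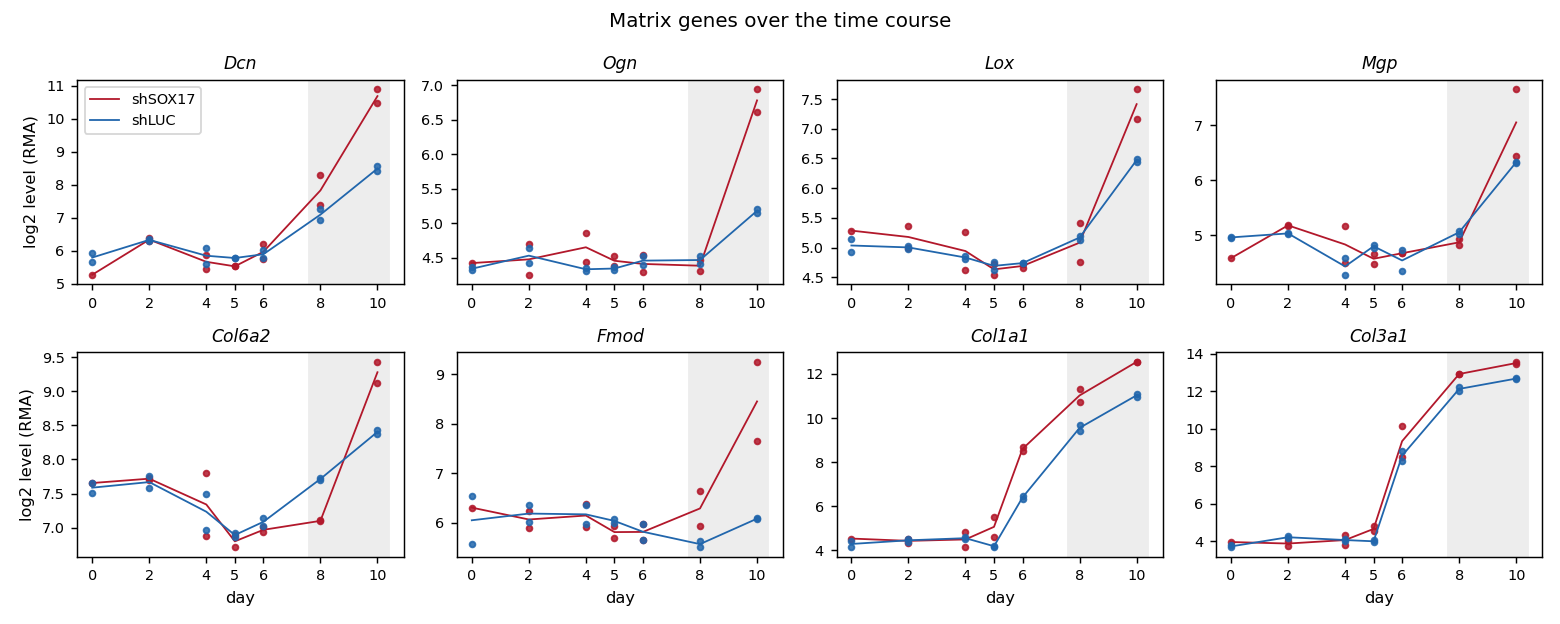
Log2 level (RMA) of 8 matrix genes on every array, by day of differentiation, in shSOX17 (red) and shLUC (blue) embryoid bodies. Points are arrays, lines join group means, and days 8 and 10 are shaded. Ogn stayed between 4.26 and 4.86 on all shSOX17 arrays up to day 8 and reached 6.95 and 6.62 at day 10. It passed the filter through these 2 day 10 arrays alone, so its low earlier levels follow from the filter. Col1a1 was at 8.69 and 8.51 at day 6.

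Dcn, Col1a1 and Ogn are followed here over the sampled days. Dcn in shSOX17 cells had 5.74 and 6.19 at day 6, then 7.37 and 8.28 at day 8, then 10.90 and 10.47 at day 10. Col1a1 had 8.69 and 8.51 at day 6, then 10.72 and 11.33 at day 8, then 12.54 and 12.56 at day 10. From day 6 to day 8 to day 10, both replicates of Dcn and Col1a1 lay above those of the preceding sampled day. Ogn left its early range at day 10 only. Because it passed the filter through the shSOX17 day 10 arrays alone, this timing cannot be set against that of Dcn and Col1a1.

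Further matrix families were assembled after their values had been seen and serve as description. Over all genes 2.15% were called higher. Of 8 measured small leucine-rich proteoglycans, 4 rose (Dcn, Ogn, Fmod and Lum), with a median of 1.05 over the 8. Fibromodulin (Fmod), which regulates collagen fibril width, had 9.25 and 7.65 at day 10 and 6.65 and 5.93 at day 8, and rose by 2.16 (SE 0.38, adjusted p = 0.00313). Replicate 1 was the higher on both days, and the call was lost without day 10 replicate 1 (adjusted p = 0.0687) or day 8 replicate 2 (adjusted p = 0.0537). Of 22 collagen-modifying and assembly factors, 7 rose and 0 fell, among them Pcolce, an enhancer of procollagen cleavage (1.28, SE 0.22, adjusted p = 0.00247). Of the 7, Lox and Pcolce kept the call in all 4 leave-outs and the other 5 did not. The 4 nuclear factor I transcription factors all rose. Nfia had 8.43 and 8.06 at day 10 and 7.10 and 7.04 at day 8, a difference of 1.17 (SE 0.16, adjusted p = 0.000204). Nfic, Nfib and Nfix rose by 0.94, 0.90 and 0.86. Nfix lost its call without day 10 replicate 2 (adjusted p = 0.0715), and 1 of its 5 probe sets had the opposite sign.

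By the brightest probe set of each gene, Clca3a1, a member of the chloride channel accessory family, had the largest difference, with 6.39 and 7.07 at day 10 and 3.75 and 3.88 at day 8 (2.91, SE 0.16, adjusted p = 6.11e-09). Its other probe set had a difference of 0.49, and dimmer probe sets of Fmod and Ogn had differences of up to 3.72 and 2.95, so the order of the largest rises depends on the probe set. Shisa3, an antagonist of Wnt and Fgf signalling, had 7.33 and 6.13 at day 10 and 4.28 and 3.93 at day 8 (2.62, SE 0.34, adjusted p = 0.000164). The X-linked homeobox gene Rhox6 had 8.78 and 6.78 at day 10 and 5.61 and 4.89 at day 8 (2.53, SE 0.39, adjusted p = 0.000982). The day 10 replicates of Shisa3 and Rhox6 lay far apart, yet both stood above day 8. Among the other genes of the 15 with the greatest rise, Prss35, a serine protease relative, rose by 2.30, Cpz, a carboxypeptidase of the matrix, by 2.24, Nell1, a growth regulator of bone, by 2.17, the chemokine Ppbp by 2.16, and Islr, a marker of mesenchymal stromal cells, by 2.03. The other Nell1 probe set had a difference of 0.09. Actg2, the smooth muscle gamma actin, rose by 2.12. Of these 15, 14 kept their call when any 1 of the 4 arrays was left out; Fmod was the exception. Ogn, Cpz, Nell1 and Ppbp, 4 of the 15, entered the test through the shSOX17 day 10 arrays alone.

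Erythroid genes fell in part. Of 12 measured erythroid genes 6 were called lower and 0 higher, against 0.504% lower over all genes, and all 12 differences were negative with a median of -1.52. Since arrays measured whole embryoid bodies, fewer cells of a type and less RNA per cell cannot be told apart. Klf1, a zinc finger activator of globin genes, had 6.21 and 5.63 at day 10 and 8.25 and 7.33 at day 8 (-1.87, SE 0.42, adjusted p = 0.0197). Tal1, a helix-loop-helix factor required for blood formation, had 6.60 and 6.08 at day 10 and 7.94 and 7.50 at day 8 (-1.38, SE 0.22, adjusted p = 0.00122). For both the days were fully separate. Nfe2, a leucine zipper factor of red cells and platelets, had 6.09 and 5.21 at day 10 and 7.62 and 7.07 at day 8 (-1.70, SE 0.38, adjusted p = 0.0179). Alas2, which starts haem synthesis in red cells, had 6.93 and 5.37 at day 10 and 8.24 and 7.75 at day 8 (-1.85, SE 0.48, adjusted p = 0.0468). Slc4a1, the anion exchanger of the red cell membrane, had 6.41 and 5.43 at day 10 and 7.91 and 7.26 at day 8 (-1.66, SE 0.36, adjusted p = 0.0151). In these 3 genes replicate 1 of day 10 lay between replicate 2 and the day 8 arrays. Tfrc, the transferrin receptor, fell by 0.66 (SE 0.15, adjusted p = 0.0254). Gata1 had 6.19 and 5.53 at day 10 and 7.41 and 6.79 at day 8, and its -1.24 (SE 0.33, adjusted p = 0.0561) did not pass.

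Most of these calls depended on which arrays were in the fit. In shSOX17 cells, replicate 1 minus replicate 2 correlated across genes between days 8 and 10 (r = 0.796). A fit without 1 array therefore also carries the offset between replicates into the difference. With replicate number as a block the erythroid list had 11 lower calls, and 6 with a block over all days. The labels tie replicate numbers to no shared batch. Tal1 kept its call when any 1 of the 4 arrays was left out. Klf1 lost it without day 10 replicate 1 (adjusted p = 0.0519), day 10 replicate 2 (0.154) or day 8 replicate 1 (0.199). Nfe2, Slc4a1 and Tfrc lost theirs without day 10 replicate 2 (0.193, 0.185 and 0.287) or day 8 replicate 1 (0.151, 0.151 and 0.258). Alas2 did so without day 10 replicate 2 (0.425), day 8 replicate 1 (0.229) or day 8 replicate 2 (0.0911). The number of erythroid genes called was 1 without day 10 replicate 2 and 1 without day 8 replicate 1, and 0 when the shSOX17 arm was fitted alone.

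The embryonic globins were read separately because their replicates scattered. Hbb-bh1, a beta-like embryonic globin, had 11.77 and 9.53 at day 10 and 13.58 and 12.93 at day 8 (-2.61, SE 1.22, adjusted p = 0.422). Hba-x, the embryonic alpha-like globin, had 10.92 and 8.96 at day 10 and 12.82 and 12.11 at day 8 (-2.52, SE 1.07, adjusted p = 0.339). Hbb-y, another embryonic beta-like globin, had 12.73 and 11.61 at day 10 and 12.16 and 12.81 at day 8, and the days overlapped (-0.31, SE 1.22, adjusted p = 0.988). None of the 3 globins passed the test, although the first 2 had the most negative differences on the list. In shLUC cells Hbb-bh1 had 8.33 and 8.18 at day 10 and 10.49 and 9.75 at day 8, a difference of -1.86. Hba-x had 6.38 and 6.35 at day 10 and 9.53 and 8.93 at day 8 there (-2.86), and Hbb-y had 7.47 and 7.43 at day 10 and 10.73 and 10.30 at day 8 (-3.06). All 3 globins had fully separate days in shLUC cells, and none passed there (adjusted p = 0.606 for Hba-x and 0.693 for Hbb-y, unadjusted p = 0.145 for Hbb-bh1). Their shSOX17 change minus their shLUC change was -0.74 for Hbb-bh1, 0.34 for Hba-x and 2.75 for Hbb-y, and none of these differences was called (unadjusted p = 0.672, 0.826 and 0.129).

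**Figure D2:**
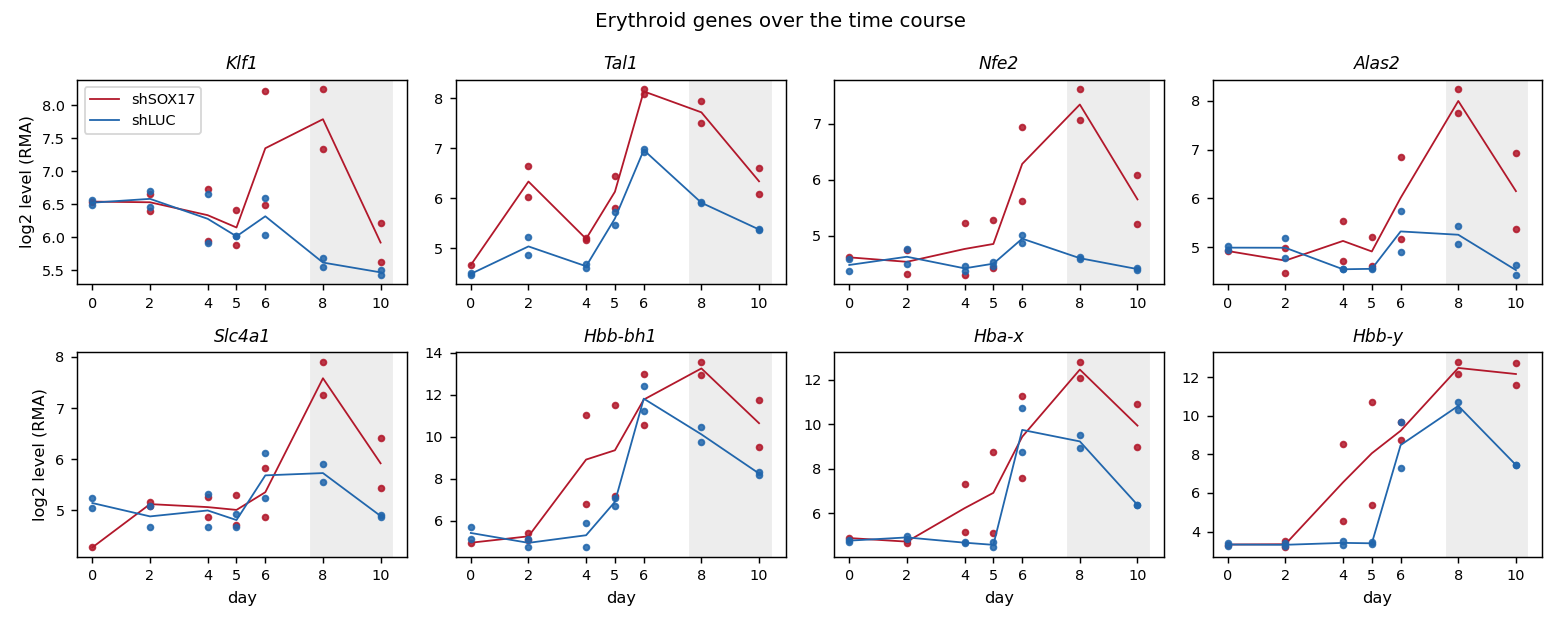
Log2 level (RMA) of 8 erythroid genes on every array, by day of differentiation, in shSOX17 (red) and shLUC (blue) embryoid bodies. Points are arrays, lines join group means, and days 8 and 10 are shaded. In shSOX17 cells Slc4a1 and Alas2 had their highest mean at day 8, with 7.91 and 7.26 for Slc4a1, and lower values at day 10.

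The course over days is given for 3 of these genes. In shSOX17 cells Klf1 had 6.48 and 8.22 at day 6, then 8.25 and 7.33 at day 8, then 6.21 and 5.63 at day 10. Slc4a1 had 4.88 and 5.83 at day 6, then 7.91 and 7.26 at day 8, then 6.41 and 5.43 at day 10. Tal1 reached 8.09 and 8.19 at day 6, then 7.94 and 7.50 at day 8, before its 6.60 and 6.08 at day 10. In shLUC cells Klf1 had 5.43 and 5.50 at day 10 and 5.69 and 5.54 at day 8, and Nfe2 had 4.38 and 4.42 at day 10 and 4.58 and 4.61 at day 8. For both genes every shLUC array of days 8 and 10 lay below every shSOX17 array of day 8.

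A wider set of red cell genes, assembled after its values had been seen, held 6 of 22 that fell and 0 that rose. By comparison, 0.504% of all genes were called lower. Kel, a blood group protein of the red cell surface, had 5.57 and 4.68 at day 10 and 6.96 and 5.86 at day 8 (-1.29, SE 0.28, adjusted p = 0.0153). Trim10, a ring finger protein of maturing red cells, had 5.52 and 4.92 at day 10 and 6.79 and 6.18 at day 8 (-1.27, SE 0.27, adjusted p = 0.0137). Both lost the call without day 10 replicate 2 (0.208 for Kel, 0.153 for Trim10) or day 8 replicate 1 (0.217 for Kel, 0.162 for Trim10). Carbonic anhydrase 2 (Car2) had 8.78 and 9.41 at day 10 and 10.29 and 10.21 at day 8 (-1.16, SE 0.18, adjusted p = 0.00104), and kept the call whichever array was left out. The mitochondrial haem factor Fam210b fell by 0.93, the progenitor transcription factor Myb by 0.65 and the membrane protein Ermap by 0.62. Their calls were lost without day 10 replicate 1 for Fam210b (0.103) and Myb (0.377), without day 10 replicate 2 for Myb (0.0803) and Ermap (0.185), without day 8 replicate 1 for all 3 (0.0769, 0.286 and 0.131) and without day 8 replicate 2 for Myb (0.0651) and Ermap (0.0600).

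Because the red cell genes that were called moved one way, the bases before their start sites were searched for the words that Gata factors bind. The words were AGATAA and its variants that begin with T or end with G (4 in all), on both strands, within 250 bases before the start. The 12 erythroid genes called lower were 6 of the erythroid list and 6 of the wider set assembled after its values had been seen. RefSeq (GRCm38.p6) promoters were at hand for 9 of the 12, and 6 of the 9 held at least 1 word. Since these genes were picked by their calls here, the share is a description and not a test. Among 10674 tested genes with a promoter, 20.4% held one in at least 1 window, as did 26.5% of all 32851 windows. A match describes the letters and is not evidence of binding. Shown are the windows of the 4 genes with the greatest fall among the 6, with the words in capitals, at chr8:84901732-84901981 on the plus strand for Klf1, chrX:150547167-150547416 on the plus strand for Alas2, chr4:115056176-115056425 on the plus strand for Tal1 and chr6:41704326-41704575 on the minus strand for Kel.
Klf1: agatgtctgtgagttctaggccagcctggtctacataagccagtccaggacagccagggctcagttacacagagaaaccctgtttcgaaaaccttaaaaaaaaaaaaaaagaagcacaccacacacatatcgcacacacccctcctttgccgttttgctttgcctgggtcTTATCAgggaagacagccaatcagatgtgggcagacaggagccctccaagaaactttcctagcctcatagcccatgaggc
Alas2: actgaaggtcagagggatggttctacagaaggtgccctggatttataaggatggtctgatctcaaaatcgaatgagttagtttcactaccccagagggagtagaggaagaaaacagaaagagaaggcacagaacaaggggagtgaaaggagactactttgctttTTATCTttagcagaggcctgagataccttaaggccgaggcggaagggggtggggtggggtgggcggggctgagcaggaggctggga
Tal1: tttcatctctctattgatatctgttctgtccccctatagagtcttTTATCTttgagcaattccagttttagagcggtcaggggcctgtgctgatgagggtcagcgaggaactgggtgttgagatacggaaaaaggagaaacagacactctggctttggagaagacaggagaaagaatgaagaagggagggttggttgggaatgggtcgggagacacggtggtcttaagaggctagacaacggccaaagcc
Kel: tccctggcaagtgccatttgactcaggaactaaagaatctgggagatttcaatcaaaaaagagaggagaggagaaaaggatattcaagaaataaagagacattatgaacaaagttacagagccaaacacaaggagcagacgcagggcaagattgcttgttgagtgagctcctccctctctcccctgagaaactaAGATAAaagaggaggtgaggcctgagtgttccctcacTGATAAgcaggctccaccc
Counted to the first base of the word, the match lay 80 bases before the start in Klf1, 86 in Alas2 and 205 in Tal1, while Kel held matches at 56 and 19. The words in Alas2, Tal1 and the more distant one in Kel were AGATAA, and those in Klf1 and nearer the Kel start were TGATAA.

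Among called genes, by the brightest probe set of each, Tdo2 had the most negative difference. Its dimmer probe sets had differences of -0.73 and -0.77. By the brightest, Tdo2, a tryptophan-degrading enzyme, had 5.02 and 5.68 at day 10 and 8.18 and 8.04 at day 8 (-2.76 or 6.78-fold lower, SE 0.62, adjusted p = 0.0186). It lost the call without day 10 replicate 1 (0.213), day 8 replicate 1 (0.0990) or day 8 replicate 2 (0.0790). Nkx1-2, a homeobox gene of the caudal epiblast and tail bud, had 4.04 and 4.74 at day 10 and 6.48 and 6.87 at day 8 (-2.29, SE 0.24, adjusted p = 1.49e-05). The dimmer probe sets of Nkx1-2 had differences of -0.54 and -0.36. In shSOX17 cells Nkx1-2 had stood at 8.18 and 7.65 at day 4, then 6.87 and 6.18 at day 5, then 7.03 and 7.23 at day 6. It was the only called gene of 16 in the primitive streak and tail bud list, whose median was -0.10 and turned to 0.10 without day 10 replicate 1. Apela, a peptide ligand of the apelin receptor made by early embryonic cells, had 6.89 and 6.85 at day 10 and 9.15 and 8.52 at day 8 (-1.97, SE 0.24, adjusted p = 6.52e-05). The dimmer Apela probe set had a difference of -0.58. On all shSOX17 arrays from day 0 to day 8 Apela lay between 7.96 and 9.89, above both day 10 arrays.

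Among genes of early embryonic cells the directions were mixed. In the pluripotency list 1 of 26 rose and 2 fell, with a median of 0.36. Of its 26 differences, 19 were positive and 7 negative. Of all genes, 2.15% were called higher and 0.504% lower. Lin28a, an RNA-binding protein that blocks let-7 maturation, had 7.97 and 8.77 at day 10 and 9.96 and 9.86 at day 8 (-1.54, SE 0.38, adjusted p = 0.0322). Sall4, a zinc finger factor of stem cells, fell by 0.79 (SE 0.19, adjusted p = 0.0274). Dppa2, a chromatin factor of early embryos, had 6.41 and 6.50 at day 10 and 4.92 and 5.17 at day 8 and rose by 1.41 (SE 0.31, adjusted p = 0.0155). None of the 3 kept the call in every leave-out: without day 10 replicate 1 the adjusted p was 0.391 for Lin28a, 0.391 for Sall4 and 0.0946 for Dppa2, without day 8 replicate 1 it was 0.137, 0.0603 and 0.113, without day 8 replicate 2 it was 0.111 for Lin28a and 0.178 for Sall4, and without day 10 replicate 2 it was 0.0806 for Dppa2. The defining markers Pou5f1, Nanog, Zfp42 and Dppa5a had differences of 0.40, 1.11, 0.77 and 1.18. None of these markers passed (adjusted p = 0.925, 0.550, 0.691 and 0.191).

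A group of embryonic regulators assembled after its values had been seen held 7 of 13 that fell and 0 that rose. By comparison, 0.504% of all genes were called lower. Greb1l, a regulator needed for kidney formation, had 7.29 and 7.41 at day 10 and 8.90 and 8.57 at day 8 (-1.39, SE 0.19, adjusted p = 0.000319). The dimmer Greb1l probe set had a difference of -0.27. The adhesion receptor protogenin (Prtg) had 8.41 and 8.94 at day 10 and 10.13 and 9.82 at day 8 (-1.30, SE 0.21, adjusted p = 0.00128). Both kept the call in all 4 leave-outs. Greb1 fell by 1.72 (adjusted p = 0.0142) and lost the call in all 4, with adjusted p between 0.0555 without day 8 replicate 2 and 0.0961 without day 10 replicate 1. Sall1 fell by 1.43 (adjusted p = 0.0173), a call lost without day 10 replicate 1 (0.0839), day 10 replicate 2 (0.0981) or day 8 replicate 1 (0.187). Nr6a1, a nuclear receptor of the trunk, fell by 0.96 (adjusted p = 0.00332), though 1 of its 5 probe sets had the opposite sign and the call was lost without day 10 replicate 1 (0.0900).

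Transporters were also among the 15 genes with the greatest fall. Slc16a1, a lactate and pyruvate transporter, had 9.65 and 9.40 at day 10 and 11.05 and 10.84 at day 8 (-1.42, SE 0.24, adjusted p = 0.00231). Embigin (Emb), a membrane partner of such transporters, had 10.18 and 9.51 at day 10 and 11.52 and 10.89 at day 8 (-1.36, SE 0.20, adjusted p = 0.000631). Both genes had fully separate days and kept the call in each leave-out. The zinc and manganese importer Slc39a8 fell by 1.51 (adjusted p = 0.0319), a call lost without day 10 replicate 1 (0.464) or day 8 replicate 2 (0.284).

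Other blood and vessel lists had few calls. Of all genes, 2.15% were called higher and 0.504% lower. Of 21 endothelial genes 1 fell and 0 rose, and the median was -0.61. The one called was Tek, the angiopoietin receptor, with 7.67 and 6.74 at day 10 and 8.91 and 7.94 at day 8 (-1.22, SE 0.26, adjusted p = 0.0121); it lost the call without day 10 replicate 2 (0.178) or day 8 replicate 1 (0.182). Of 13 macrophage and leukocyte genes 3 rose. Coro1a, an actin regulator of white cells, had 6.89 and 6.31 at day 10 and 5.41 and 5.07 at day 8 (1.36, SE 0.20, adjusted p = 0.000446). Tyrobp, a signalling adaptor of myeloid cells, rose by 1.29 (SE 0.21, adjusted p = 0.00149) and the endotoxin co-receptor Cd14 by 1.17 (SE 0.17, adjusted p = 0.000382). The defining receptor Csf1r had 7.16 and 7.00 at day 10 and 7.05 and 7.07 at day 8 and its groups overlapped (0.02, adjusted p = 0.994). Adgre1, Cd68 and Lyz2 had differences of 0.22, 0.33 and 0.24, and none passed. Of 11 megakaryocyte and platelet genes only the chemokine Ppbp was called.

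Heart muscle genes had few calls, where 2.15% of all genes were called higher and 0.504% lower. Of 25 sarcomere genes 1 rose and 0 fell, and the median was -0.03; of 19 cardiac transcription factors 0 were called. Myh6, the alpha myosin heavy chain of heart muscle, had 6.94 and 7.29 at day 10 and 6.27 and 5.99 at day 8 in shSOX17 cells, and rose by 0.99 (SE 0.15, adjusted p = 0.000853). In shLUC cells Myh6 had 11.15 and 11.16 at day 10 and 11.60 and 11.26 at day 8. All shSOX17 arrays lay below all shLUC arrays. Other cardiomyocyte markers, Tnnt2, Actc1, Nkx2-5 and Ttn, had differences of 0.46, -0.03, -0.50 and -0.40 and did not pass. Of 12 smooth muscle genes only Actg2 was called, and the markers Acta2, Tagln and Cnn1 had differences of -0.03, -0.14 and -0.46. Cacna1g, a T-type calcium channel, rose by 0.81 (adjusted p = 0.0282), a call lost without day 10 replicate 2 (0.265) or day 8 replicate 1 (0.221).

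Of 19 Wnt targets and antagonists 4 rose (21.1%, against 2.15% of all genes) and 0 fell, while the list's median was 0.01. Sfrp1, a secreted Wnt antagonist, had 10.55 and 9.91 at day 10 and 9.20 and 8.04 at day 8 (1.61, SE 0.30, adjusted p = 0.00490). The antagonists Dkk2 and Sfrp2 rose by 1.42 (adjusted p = 0.0187) and 0.97 (adjusted p = 0.0474), and the ligand Wnt2 by 1.05 (SE 0.21, adjusted p = 0.00802). Without day 10 replicate 1 the adjusted p was 0.112 for Sfrp1, 0.0687 for Dkk2, 0.317 for Sfrp2 and 0.203 for Wnt2. Without day 8 replicate 2 it was 0.0915 for Sfrp1, 0.224 for Sfrp2 and 0.127 for Wnt2. Dkk2 and Sfrp2 also lost the call without day 10 replicate 2 (0.123 and 0.101) or day 8 replicate 1 (0.228 and 0.109). The epicardial and mesothelial factor Wt1 had 7.36 and 6.71 at day 10 and 5.53 and 5.01 at day 8 (1.77, SE 0.21, adjusted p = 6.83e-05). It was the only called gene among 12 of its list, whose median was 0.15.

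Fatty acid oxidation genes rose in part. In the list of respiratory chain and fatty acid oxidation genes 3 of 30 rose and 0 fell, against 2.15% higher over all genes. Cpt1a, which admits long-chain fatty acids to mitochondria, had 8.50 and 8.60 at day 10 and 6.41 and 7.03 at day 8 (1.83, SE 0.24, adjusted p = 0.000195) and kept the call in every leave-out. Acadvl, a dehydrogenase of very long chains, rose by 0.74 (adjusted p = 0.0162), which was lost without day 10 replicate 1 (0.175) or day 8 replicate 1 (0.138). Pdk4, an inhibitor of pyruvate dehydrogenase, rose by 0.80 (adjusted p = 0.0319), which was lost in all 4 leave-outs, with adjusted p from 0.0560 without day 8 replicate 2 to 0.217 without day 8 replicate 1. In a set of 21 fatty acid oxidation and ketone genes assembled after its values had been seen, all 21 differences were positive and 6 passed. Of those 6, Cpt1a kept the call in all 4 leave-outs, 2 kept it in none, and the other 3 lost it in some. Of 24 mitosis genes 0 were called, with 23 negative and a median of -0.24, and of 24 replication genes 0 were called, with 20 negative and a median of -0.12. Without day 8 replicate 1 both medians were positive, at 0.07 for mitosis and 0.11 for replication.

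**Figure D3:**
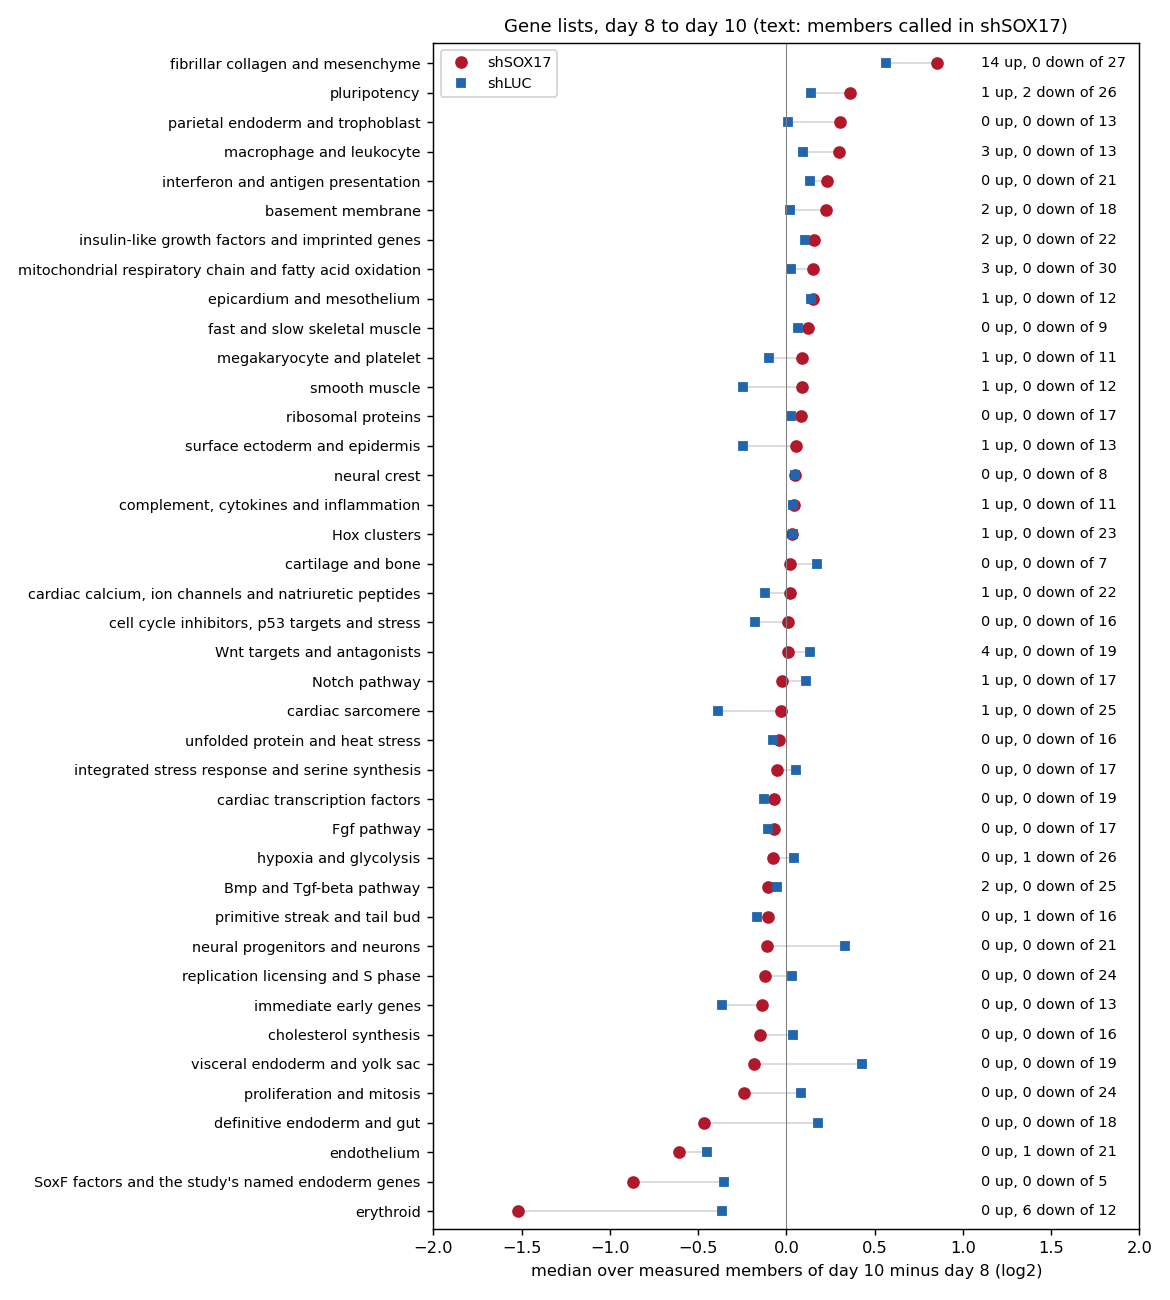
Median day 10 minus day 8 difference (log2) over the measured members of each of 40 gene lists, for shSOX17 (red circles) and shLUC (blue squares), sorted by the shSOX17 median. Text gives the members called higher and lower in shSOX17 of those measured. Fibrillar collagen and mesenchyme genes stand at the top (0.86) and erythroid genes at the bottom (-1.52).

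The same 2 days were then set beside each other in shLUC cells, whose arrays are separate from those of the shSOX17 arm. There limma called 47 genes (0.353%), 35 higher at day 10 (0.263%) and 12 lower (0.0902%), with 721 at an unadjusted p below 0.05. Without day 10 replicate 1 of shLUC there were 6 higher and 1 lower, without day 10 replicate 2 there were 6 and 0, without day 8 replicate 1 there were 7 and 1, and without day 8 replicate 2 there were 4 and 3. Array weights gave 1017 higher and 1236 lower. The overlap given next rests on the count of 47. Of the 353 genes called in shSOX17 cells 27 were also called in shLUC cells, which is 7.65% of the shSOX17 calls and 57.4% of the shLUC calls. In 25 of these the level was higher at day 10 in both arms, among them Dcn, Lox, Mgp, Col1a1, Col6a1, Islr and Actg2. Vgll2, a muscle cofactor, was lower in both, and Wnt2 went opposite ways. Among the 286 genes called higher in shSOX17 cells, 264 had a positive difference in shLUC cells too, against 49.0% of all genes tested. Of the 67 called lower, 58 had a negative difference in shLUC, against 51.0% of all genes. In the other direction, 43 of the 47 genes called in shLUC cells had the same sign in shSOX17. The matrix list had a median of 0.86 in shSOX17 and of 0.56 in shLUC. For the erythroid list the medians were -1.52 in shSOX17 and -0.37 in shLUC, and 0 of its 12 members had a called difference between the arms. Relative to shSOX17 day 8, this list's median level in shLUC was -1.91 at day 8 and -2.52 at day 10. It was thus already lower in shLUC at day 8 than in shSOX17 at day 10. Low levels understate a fall, so the size of the fall is not compared between the arms.

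**Figure D4:**
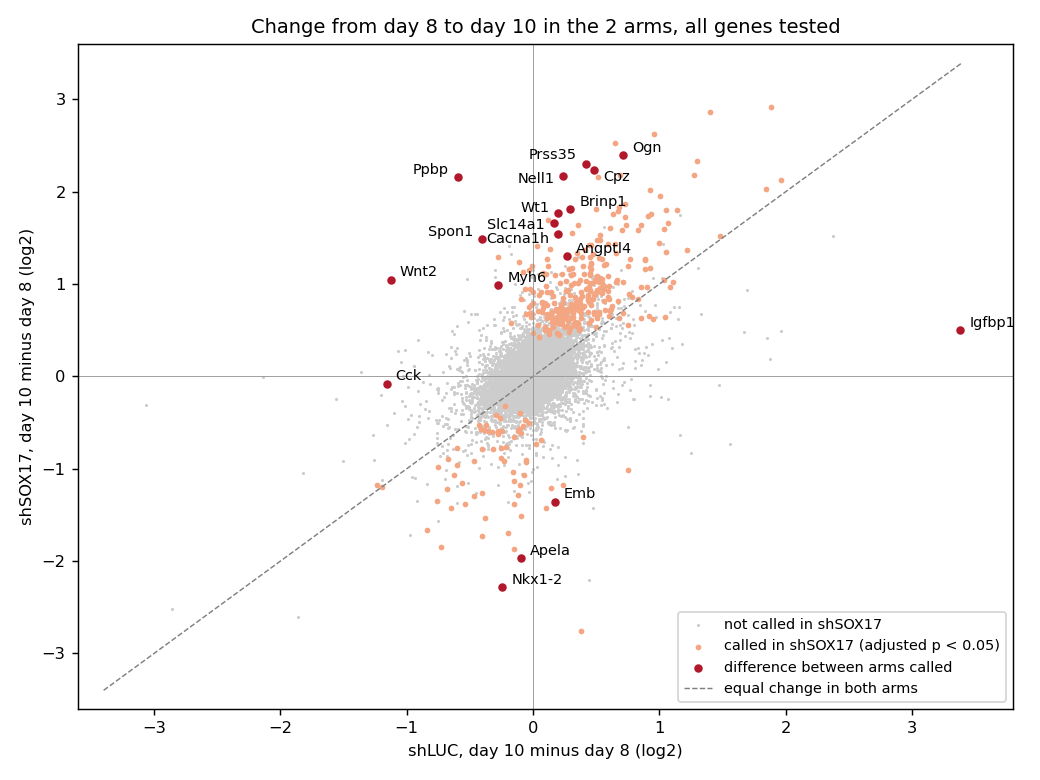
Day 10 minus day 8 difference (log2) of each of 13297 genes in shSOX17 (vertical) against shLUC (horizontal) embryoid bodies. Orange points are the 353 genes called in shSOX17, red named points are the 18 whose change differed between the arms, and the dashed line marks equal change.

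Whether a change differed between the arms was tested directly, as the shSOX17 change minus the shLUC change. This difference was called for 18 genes (0.135%), 14 positive (0.105%) and 4 negative (0.0301%), with 507 at an unadjusted p below 0.05. Of the 353 genes called in shSOX17 cells, 16 were among them. Each call rested on few arrays. With only the 8 arrays of days 8 and 10 in the fit, 2 positive and 1 negative calls were made. With 1 of the 8 arrays left out, 6 of the 18 kept the call every time (Ppbp, Wnt2, Nell1, Cpz, Ogn and Igfbp1). The filter bears on these calls too. Ppbp, Nell1, Cpz, Ogn, Brinp1 and Slc14a1 exceeded 5.53 on the 2 shSOX17 day 10 arrays and on no other of the 27. Cck exceeded it on the 2 shLUC day 8 arrays alone. Each of these genes thus entered the test through the group where it is high. With a filter that asks for at least 4 arrays, 11 of the 18 were tested and 5 of these called (Angptl4, Igfbp1, Myh6, Nkx1-2 and Wnt2).

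Ppbp had the largest positive difference. It reached 6.94 and 7.43 at day 10, against 4.59 and 5.46 at day 8 in shSOX17 cells, and 4.50 and 4.52 at day 10, against 5.18 and 5.03 at day 8 in shLUC cells (2.75, SE 0.31, adjusted p = 0.000272). Wnt2 had 8.37 and 7.57 at day 10 and 7.20 and 6.64 at day 8 in shSOX17 cells, and 5.96 and 5.94 at day 10 and 7.27 and 6.89 at day 8 in shLUC cells (2.17, SE 0.30, adjusted p = 0.00236). The change in Wnt2 was called in each arm, positive in shSOX17 and negative in shLUC. Nell1 had 6.42 and 6.36 at day 10 and 4.05 and 4.38 at day 8 in shSOX17 cells, against 4.07 and 4.19 at day 10 and 3.88 and 3.89 at day 8 in shLUC cells (1.93, SE 0.20, adjusted p = 0.000186). These values are from its brighter probe set, and the other had a shSOX17 difference of 0.09. Cpz had 7.37 and 7.64 at day 10 and 5.16 and 5.37 at day 8 in shSOX17 cells, and 5.28 and 5.42 at day 10 and 4.73 and 5.00 at day 8 in shLUC cells (1.75, SE 0.19, adjusted p = 0.000272). That the shSOX17 day 10 arrays of Ppbp, Nell1 and Cpz lay above the others follows from how these genes passed the filter. Ogn was the 1 matrix list member with a called difference (1.68, SE 0.23, adjusted p = 0.00271), with 5.15 and 5.21 at day 10 and 4.41 and 4.52 at day 8 in shLUC cells.

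Igfbp1, a secreted binder of insulin-like growth factors, had the most negative difference. In shSOX17 cells it had 4.93 and 3.87 at day 10 and 4.00 and 3.81 at day 8, and these groups overlapped. In shLUC cells it had 9.57 and 9.49 at day 10 and 6.31 and 5.99 at day 8. It was called in the shLUC arm (3.38, adjusted p = 4.12e-07) and not in the shSOX17 arm (0.50, adjusted p = 0.420). The difference between the arms was -2.88 (SE 0.33, adjusted p = 0.000272). Nkx1-2 and Apela had differences of -2.04 (SE 0.34, adjusted p = 0.0183) and -1.87 (SE 0.34, adjusted p = 0.0312). In shLUC cells Nkx1-2 had 4.08 and 4.04 at day 10 and 4.43 and 4.18 at day 8, and Apela had 6.75 and 6.78 at day 10 and 7.05 and 6.68 at day 8. At day 8 all shSOX17 arrays of both genes lay above all shLUC arrays, whereas at day 10 the levels of the arms were close. Nkx1-2 lost the call in 6 and Apela in 7 of the 8 leave-outs.

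**Figure D5:**
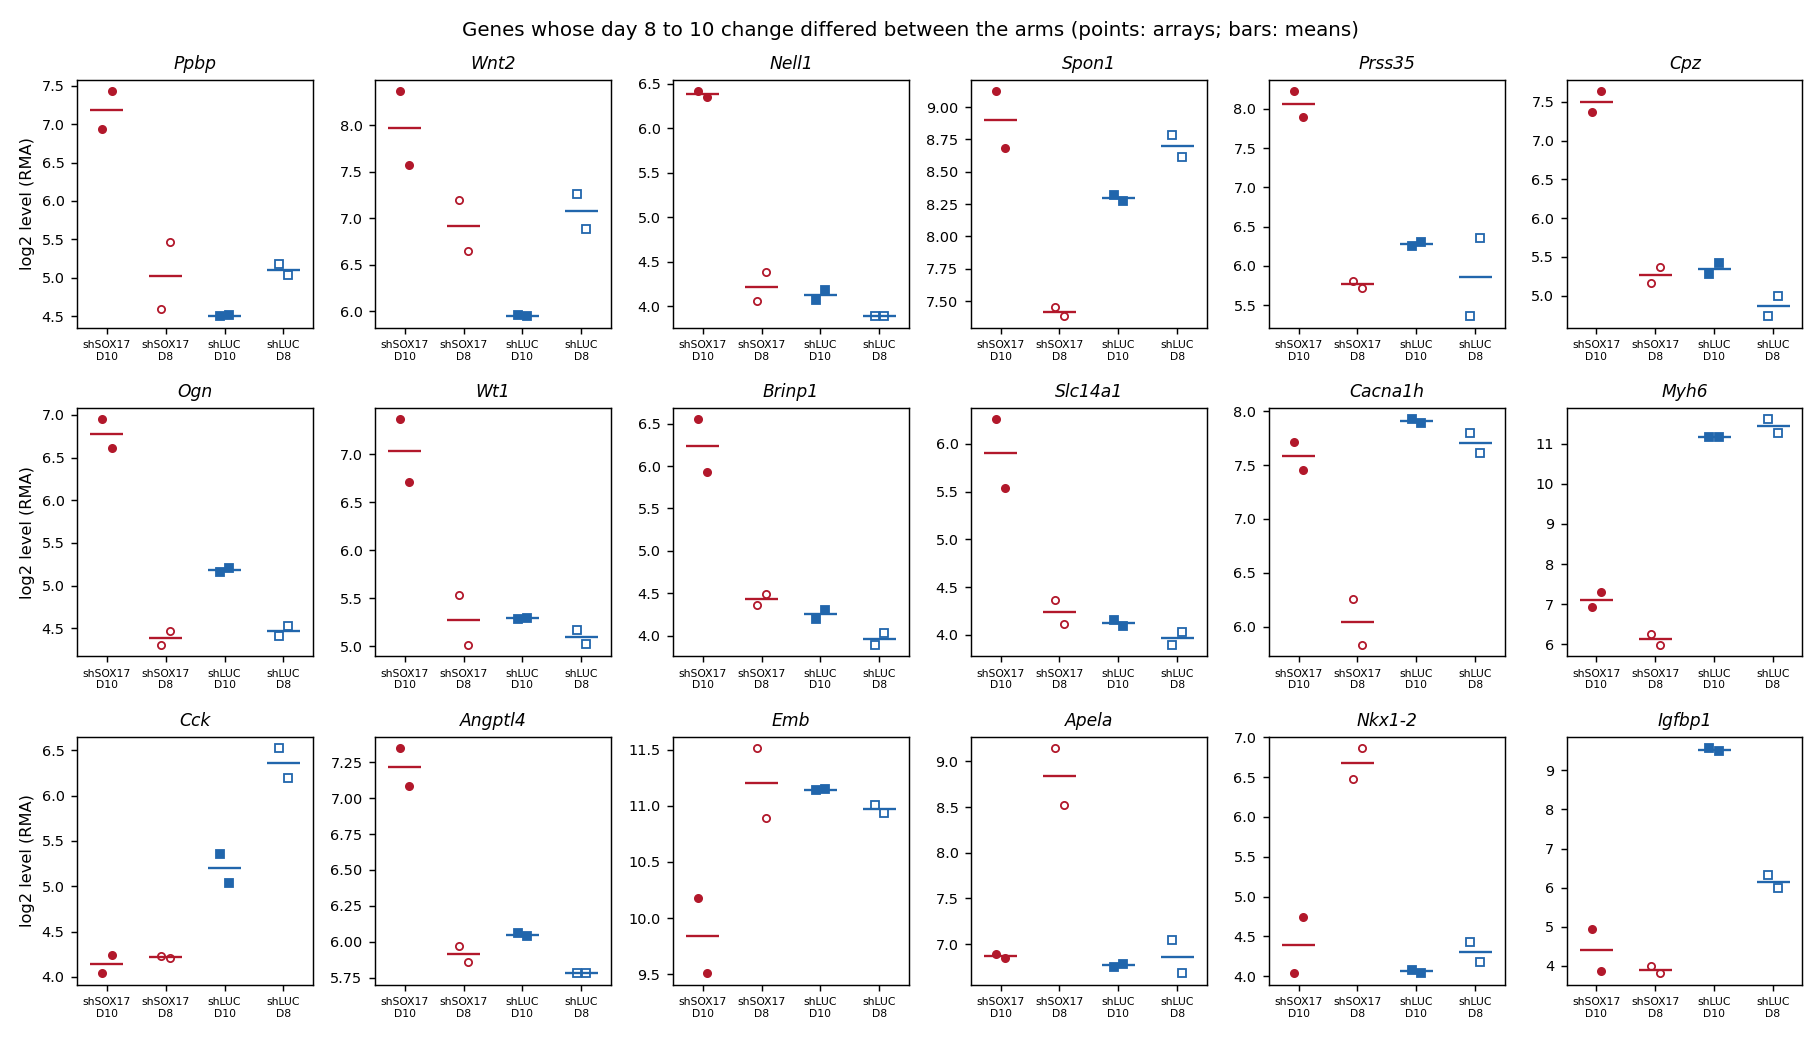
Log2 level (RMA) of the 18 genes whose day 8 to 10 change differed between the arms, on the arrays of shSOX17 day 10, shSOX17 day 8, shLUC day 10 and shLUC day 8. Points are arrays (filled at day 10, open at day 8) and bars are group means. Igfbp1 had 4.93 and 3.87 at shSOX17 day 10 and 9.57 and 9.49 at shLUC day 10.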

How the data were processed

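Total RNA of 27 embryoid body cultures was hybridised to Affymetrix mouse expression arrays. The deposited log2 values, 1 per probe set and array (45101 probe sets), were made by the authors with RMA, per the submitters' processing notes; its version is not given in the sources used here. RMA gives arrays 1 common distribution, so differences are relative to the other genes, and low levels understate folds. Probe sets with a single symbol in the platform annotation (34958) were kept above the median of all values (5.53) on at least 2 arrays, and the brightest probe set stood for each gene (13297 genes). With limma 3.58.1 in R 4.3.3, 1 model gave each of the 14 groups of arm and day its own mean, using all 27 arrays and an intensity trend (13 residual and 4.68 prior degrees of freedom). P-values are two-sided, from limma, adjusted by Benjamini and Hochberg over all genes; genes below 0.05 are called. SE are those of the fit. With 2 arrays against 2, an exact permutation test cannot go below p = 0.333. On simulated data with this design, 78% of log2 changes of 1 and 98% of changes of 2 were recovered (100 each, among 13297 genes). The simulated noise was independent between arrays and of 1 size per gene. It lacked the wider spread of the shSOX17 replicates and their shared deviations, so recovery in the real arrays may differ. Named genes are Sox17, Hhex and Cer1, the 15 largest called differences each way, up to 4 called members of each of 40 lists (the 2 largest where none was called), the called differences between arms (6 each way) and cell type markers; other genes were chosen after their values were seen. Members and lists were chosen with earlier results of these data known. The number of arrays limits the precision. Alternatives covered the filter, probe set choice, arrays in the fit, moderation, array weights, median centring, a replicate block and leaving out each array. Promoter sequences are from RefSeq (GRCm38.p6).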

Additional observations from a re-analysis of the deposited data

Results flagged for a closer look

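The day 10 minus day 8 change differed between shSOX17 and shLUC embryoid bodies in 18 genes by a limma test of the difference itself (adjusted p below 0.05), which is why each is listed. The shSOX17 change exceeded the shLUC change in 14: Ppbp by 2.75, Wnt2 by 2.17, Nell1 by 1.93, the matrix protein Spon1 by 1.89, Prss35 by 1.88, Cpz by 1.75, Ogn by 1.68, Wt1 by 1.57, the neural protein Brinp1 by 1.51, the urea transporter Slc14a1 by 1.49, the T-type calcium channel Cacna1h by 1.34, Myh6 by 1.26, the peptide hormone Cck by 1.08 and the lipase inhibitor Angptl4 by 1.03, all on the log2 scale. It lay below the shLUC change in 4, by -1.53 for Emb, -1.87 for Apela, -2.04 for Nkx1-2 and -2.88 for Igfbp1. Of the 18, Cck and Igfbp1 were called in the shLUC arm and not in the shSOX17 arm: Cck had 4.04 and 4.24 at day 10 and 4.24 and 4.21 at day 8 in shSOX17 cells, against 5.36 and 5.04 at day 10 and 6.52 and 6.19 at day 8 in shLUC cells. For Cacna1h, 1 of 2 probe sets had the opposite sign of the shSOX17 change. Spon1, Ppbp, Wnt2 and Myh6 had positive differences in shSOX17 (1.49, 2.16, 1.05 and 0.99) and negative ones in shLUC (-0.41, -0.60, -1.13 and -0.27). The causes of these differences were not tested.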

How the results depend on the processing

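No named called gene changed sign under the settings tried. The medians of 23 of the 40 lists did, all within 0.31 of 0 at the start, the matrix and erythroid lists not among them. The median over all genes was -0.04 under median centring, against 0.02, and shLUC had more lower than higher calls with array weights and with the replicate block. Without 1 array, calls in shSOX17 numbered 125 to 271 higher and 35 to 75 lower; in shLUC 4 to 7 higher and 0 to 3 lower; for the difference between arms 5 to 36 positive and 1 to 5 negative; for the matrix list 9 to 12 and for the erythroid list 1 to 5. The lone array left in a group was assumed to vary like the others. Fitted on the 4 arrays alone, shSOX17 had 0 higher and 0 lower calls (0 in the matrix list and 0 in the erythroid list), with 1256 genes at an unadjusted p below 0.05. On the shSOX17 arm alone it had 64 higher and 5 lower, with 7 matrix and 0 erythroid members. Neither setting gives a value for shLUC or for the difference. On the 8 arrays of days 8 and 10, shSOX17 had 102 lower, shLUC 16 higher and 1 lower, the difference 2 positive and 1 negative, and the erythroid list 3. On days 5, 6, 8 and 10, shLUC had 7 lower, the difference 6 positive and 1 negative, and the erythroid list 3. The stricter filter gave 7 lower in shLUC and 3 positive and 2 negative for the difference. Averaging probe sets gave 54 higher and 19 lower in shLUC and 22 positive for the difference. Array weights gave 1017 higher and 1236 lower in shLUC, and 43 positive and 18 negative for the difference. Median centring gave 102 lower in shSOX17. Replicate numbers were not taken as pairs, since the labels tie them to no shared batch and there are only 2; the correlation of replicate deviations between days 10 and 8 was 0.796 in shSOX17 and 0.114 in shLUC. With the replicate block, shSOX17 had 1699 higher and 1025 lower, shLUC 522 higher and 587 lower, the difference 321 positive and 189 negative, the matrix list 22 and the erythroid list 11. A replicate block over all days, added after seeing the data, gave 20 lower in shLUC. Of the 353 shSOX17 calls, 294 remained under median centring, 290 with array weights, 250 on the 8 arrays, 69 on the shSOX17 arm alone and 142 without day 10 replicate 1. The cause of these shifts was not tested. With 2 arrays a group, a difference that missed the threshold may still exist.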

Other observations

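Outside the lists fixed for the comparison, a set of 31 lysosome-related genes was assembled after its values had been seen. Its median difference was 0.22 against 0.02 over all genes. In shSOX17 embryoid bodies 6 of the 31 were called higher at day 10 and 0 lower, against 2.15% higher over all genes. They were Arsb, Gaa, Scarb2, Ctsb, Glb1 and Cln6, with differences of 0.79, 0.63, 0.58, 0.56, 0.53 and 0.48; 0 of the 6 kept the call in all 4 leave-outs. Of 10 carbonic anhydrases 3 were called lower, against 0.504% of all genes. These were Car2, Car4 and Car13, with differences of -1.16, -1.02 and -0.60. Car2 kept the call in all 4 leave-outs, whereas Car4 lost it without day 10 replicate 2 (adjusted p = 0.334), day 8 replicate 1 (0.250) or day 8 replicate 2 (0.0644) and Car13 without day 10 replicate 1 (0.494), day 8 replicate 1 (0.171) or day 8 replicate 2 (0.169). Definitive endoderm and gut genes had a median of -0.47 in shSOX17 and 0.18 in shLUC, with 0 of 18 called in shSOX17 and 1 in shLUC.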
